A study of Gallus gallus with 6 samples.

Results

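The DEAD and DEAH box genes encode a large family of ATP-dependent RNA helicases. They were taken as every gene of the expression table whose symbol starts with DDX or DHX and a digit, without DHX58, an antiviral RNA sensor. The rule found 37 genes of the 14481 in the table, 26 with a DDX symbol and 11 with a DHX symbol, and it used no measured value. The livers of 3 chickens labelled resistant to ALV-J and 3 chickens labelled susceptible to it were compared. ALV-J is subgroup J of avian leukosis virus, a retrovirus of chickens. The labels give the tissue, the total RNA and the resistance class, and nothing further on how resistance was scored or on breed, age, sex, treatment or infection at sampling. The bird numbers, resistant 1 to 3 and susceptible 1 to 3, are those of the labels. The labels do not say that birds of the same number are a pair.

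DEAD box and DEAH box proteins use ATP to open short RNA duplexes, to move along RNA or to strip proteins from it. Members act at nearly every step in the life of an RNA: transcription, splicing, export, translation, decay and the assembly of ribosomes. Retroviruses, which have their RNA transcribed, spliced and exported by the host cell, are known to use some of them, and the human DDX3X protein is a cofactor of the export of unspliced HIV RNA.

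Levels are the authors' deposited FPKM, fragments scaled by transcript length and by sequencing depth, so they can be compared between genes. The gene totals came to 6623024, 5809099 and 3831108 fragments in resistant 1 to 3, against 5539784, 4261585 and 4449318 in susceptible 1 to 3. Between 7653 and 9424 genes were above 0 in a resistant bird, against 6671 to 7858 in a susceptible bird. The tissue label was checked with 11 hepatocyte markers, whose summed level was 17847 to 65810 FPKM in resistant livers and 36284 to 60596 FPKM in susceptible livers. ALB, the serum albumin gene, was listed at 0 in resistant 2 and susceptible 3, where other hepatocyte genes such as TTR stood at 3673 and 7148 FPKM. A listed 0 can thus be a failed estimate, and values of 0 are given here as listed and not read as absence. The hepatocyte sums include ALB, and the lowest sum of each group is that of its bird with ALB at 0. In the other birds ALB had 24858 to 30679 FPKM. Fragments on chromosome W, which only hens carry, were found in 4 birds and not in resistant 3 or susceptible 3. The sum of 6 macrophage markers was 244 to 356 FPKM in resistant livers and 122 to 335 FPKM in susceptible livers, and that of 10 lymphocyte markers was 40.7 to 131 FPKM in resistant livers and 26.9 to 221 FPKM in susceptible livers. BLB1 alone gave 145 of the 221 FPKM in susceptible 3, and whether it marks lymphocytes alone was not tested. BLB1 is counted below among the lymphocyte markers higher in resistant livers, though susceptible 3 was its highest bird. Gene by gene, 5 of 7 tested lymphocyte markers and 5 of 6 macrophage markers were higher in resistant livers, against 52.8% of all genes tested. Of the hepatocyte markers 2 were higher and 9 lower. The 9 include ALB, listed at 0 in resistant 2 and susceptible 3, so its direction is not read. The 2 include CPS1, which had at most 3.9 FPKM in any bird. Of other cell types, 7 of 9 endothelial, 4 of 6 stellate cell and 3 of 12 dividing cell markers were higher. The 1 tested red cell marker was lower. None of these markers passed the test used below. The part of cell makeup in the values below was not tested, and in bulk tissue fewer cells of a type cannot be told apart from less RNA per cell.

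The share of the liver transcriptome taken by the family as a whole overlapped between the groups. It made up 0.204%, 0.143% and 0.217% of the summed FPKM in resistant 1 to 3, against 0.188%, 0.149% and 0.193% in susceptible 1 to 3. The means were 0.188 ± 0.0398% in resistant livers and 0.177 ± 0.0245% in susceptible livers (SD, n = 3 each). A few genes carried most of it: DDX5 alone gave 28.6% of the family's summed mean FPKM of 806.5, the top 3 genes gave 55.1% and the top 10 gave 80.6%. The order of the mean levels was DDX5, DDX3X, DDX17, DHX29, DDX24, DDX19B, DDX6, DHX36, DHX15 and DDX21. From DDX17 (74.2 FPKM) down to DDX21 (14.0 FPKM) the birds' values overlapped widely, so that neighbours in the order did not separate. DHX29 ran from 9.91 to 192 FPKM, DDX24 from 10.5 to 67.3 FPKM and DDX19B from 6.31 to 67.8 FPKM. Among the lower genes, 3, 5 and 6 members were listed at 0 in resistant 1 to 3, against 5, 8 and 4 in susceptible 1 to 3. These counts include DDX4 and DHX32, listed at 0 in all 6 birds, and DDX25, listed at 0 in 5. Of all genes with a mean of at least 5 FPKM, 1.35%, 2.59% and 7.48% were listed at 0 in resistant 1 to 3. In susceptible 1 to 3 the shares were 5.87%, 12.6% and 7.26%. The member counts take genes of any level, so they cannot be set against these shares. Of the 8 members at 0 in susceptible 2, only DDX28 and DDX52 had a mean of at least 5 FPKM.

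**Figure D1:**
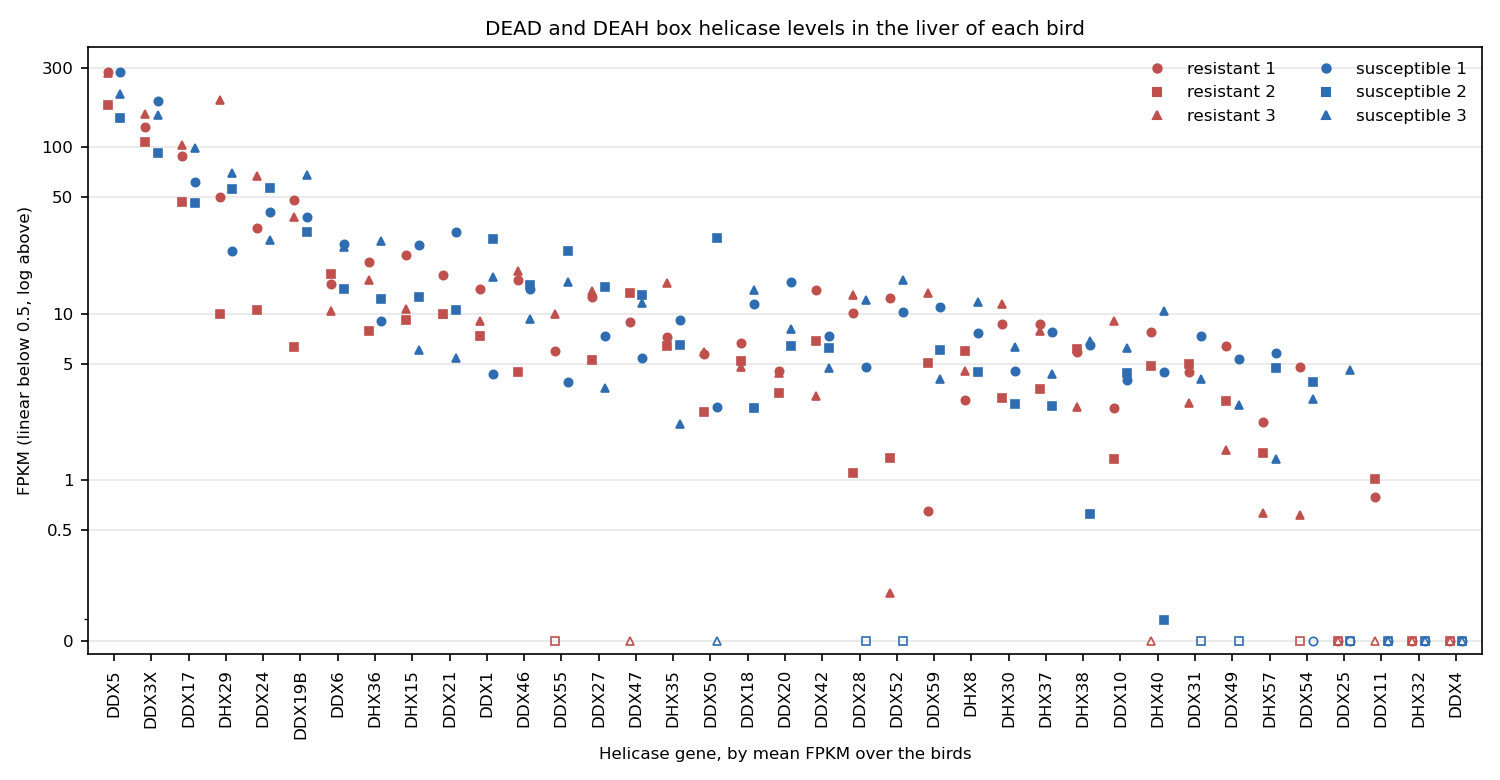
FPKM of each of the 37 helicase genes (log axis above 0.5, linear below it) in each of the 6 livers, in the order of the mean over the birds; red marks are resistant birds, blue marks are susceptible birds and open marks are values listed at 0. The 2 colours overlap for every gene above 0 in all birds other than DDX20, and DDX5 and DDX3X stand at 91.8 FPKM or more in every liver.

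Of the 37 genes, 34 reached a mean of 0.5 FPKM over the birds and were tested among 9626 genes. DDX4 and DHX32 were listed at 0 in all 6 birds. DDX11, a DNA helicase of sister chromatid cohesion, had 0.792, 1.02 and 0 FPKM in resistant livers and was listed at 0 in all 3 susceptible livers. No member passed an adjusted p of 0.05 in limma's test, and none of the 9626 genes did (0%). None of the 34 had an unadjusted p under 0.05 either, where 3.87% of all genes did, 2.4% higher and 1.48% lower in resistant livers. The smallest unadjusted p of a member was 0.162, for DDX55, and every limma adjusted p of the family lay at or above 0.984. Fold changes below are log2 fold changes of FPKM + 1, resistant minus susceptible, a scale that understates the change of low genes. They were above 0 for 14 members and below 0 for 20, so that 41.2% were higher in resistant livers, against 52.8% of all genes tested. Among the 24 members above 0 in every bird, 41.7% were higher, against 43.4% of the 4993 such genes. The members' median log2 fold change was -0.11, against 0.05 over all genes, but it was 0.01 with 18 members higher after each bird was rescaled by its median ratio. It also turned without resistant 2, to 0.16 with 21 members higher, while without susceptible 2 it was -0.28 with 10 higher.

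One member kept the groups apart. All 3 resistant values of DDX20 were below all 3 susceptible values; 8.41% of all genes had such groups without overlap, 4.44% higher and 3.98% lower in resistant livers, so 1 member of 34 is no larger a share than the background.

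**Figure D2:**
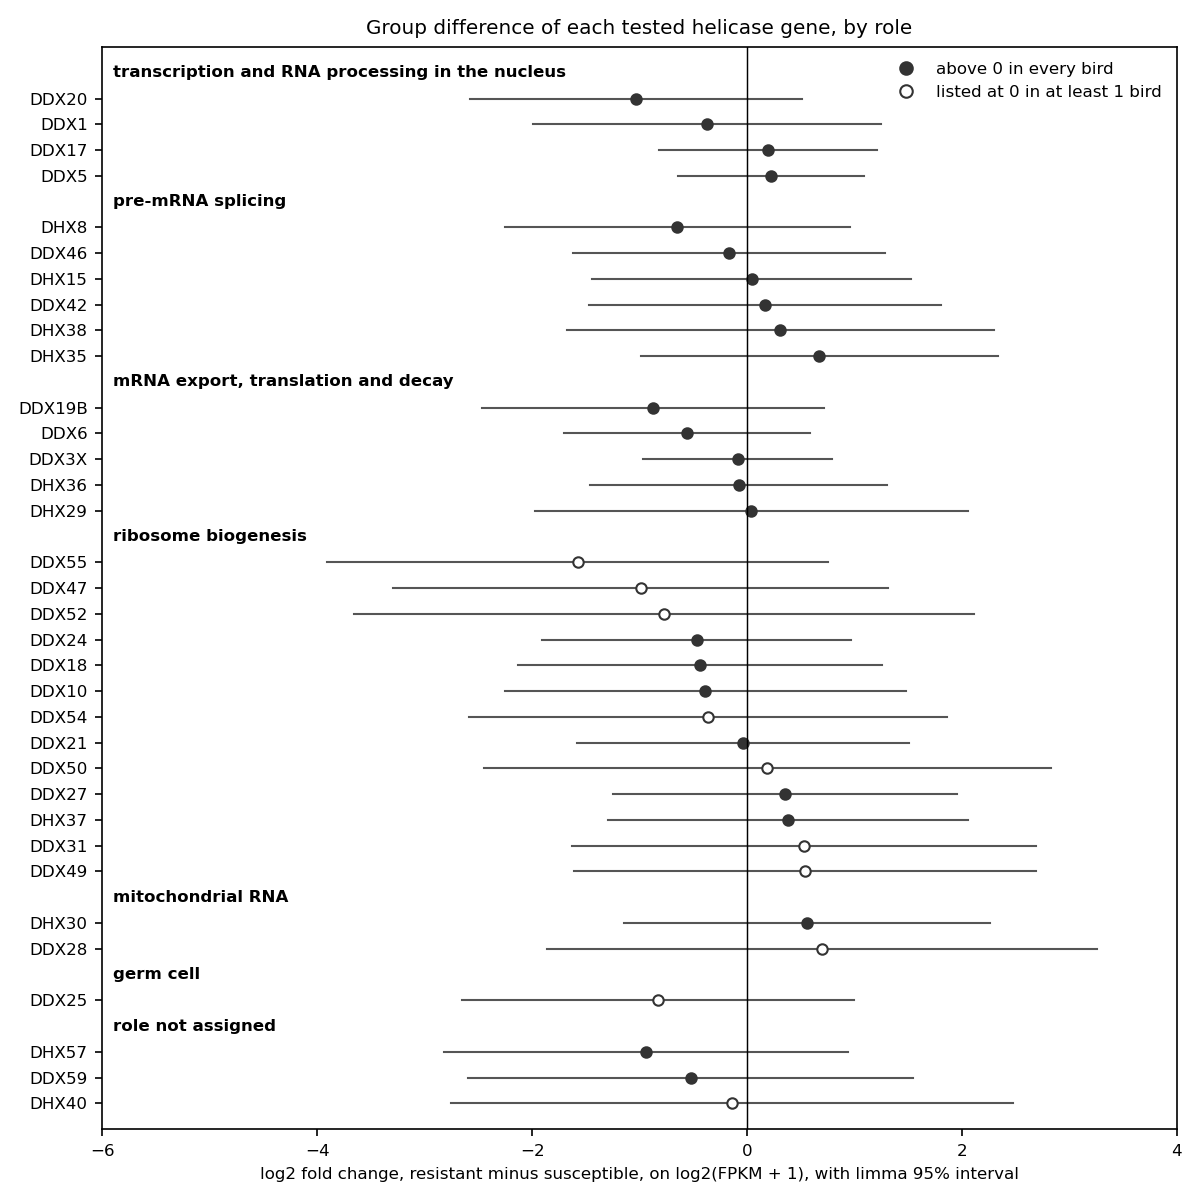
Log2 fold change of FPKM + 1, resistant minus susceptible, of each of the 34 tested helicase genes with its 95% interval from limma, grouped by role; open circles are genes listed at 0 in at least 1 bird. The interval of every gene crosses 0, and the point values run between -1.58 for DDX55 and 0.70 for DDX28.

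Nuclear transcription and RNA processing held DDX5 and DDX17, of rank 1 and 3 by mean level, while its other genes DDX1 and DDX20 were of rank 11 and 19. Of its 4 genes, 2 were higher and 2 lower in resistant livers, with a median log2 fold change of -0.09. DDX5 (ENSGALG00000003532), a coregulator of transcription that also acts in splicing and microRNA processing, lies on chromosome 18 (galGal4, 6859772 to 6865930, minus strand). DDX5 had 285, 178 and 279 FPKM in resistant livers, against 284, 150 and 208 FPKM in susceptible livers. Resistant 2 and susceptible 2 were the low birds of their groups, the ranges overlapped, and the log2 fold change was 0.22 (95% interval -0.64 to 1.09). DDX17, the paralog of DDX5 with a like set of roles, had 88.2, 47.1 and 103 FPKM in resistant livers, against 61.8, 46.5 and 98.6 FPKM in susceptible livers. Here too the number 2 birds were lowest, and the log2 fold change was 0.20 (95% interval -0.82 to 1.21). DDX5 exceeded DDX17 in every liver, by 2.71 to 3.78 times in resistant livers and by 2.11 to 4.59 times in susceptible livers. The table places DDX17 in a merged locus with KDELR3, which was listed at 0 in every bird.

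DDX20 (ENSGALG00000001504; chromosome 26, galGal4, 3226392 to 3232563, plus strand) encodes Gemin3, a subunit of the SMN complex that assembles the small nuclear ribonucleoproteins of the spliceosome. DDX20 had 4.49, 3.35 and 4.42 FPKM in resistant livers, against 15.6, 6.42 and 8.08 FPKM in susceptible livers. The resistant values lay close together below the lowest susceptible one, and susceptible 1 was the highest. The means were 4.09 ± 0.64 FPKM in resistant livers and 10.02 ± 4.87 FPKM in susceptible livers (SD, n = 3 each). The log2 fold change was -1.03 (SE 0.69, limma adjusted p = 0.984, lower in 3 of 3 resistant birds), and leaving out any 1 bird left it between -1.28 and -0.70. DDX1, a subunit of the tRNA ligase complex, completes the group and its birds overlapped.

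Splicing helicases drive the rearrangements of the spliceosome, and of the 6 measured ones 4 were higher and 2 lower in resistant livers, with a median log2 fold change of 0.11. None passed the test. DHX15, which takes the spliceosome apart after splicing, had 22.6, 9.21 and 10.6 FPKM in resistant livers, against 25.7, 12.5 and 6.05 FPKM in susceptible livers. The number 1 bird was highest in both groups, and the log2 fold change was 0.04 (95% interval -1.44 to 1.53). DHX8, which releases the spliced mRNA, had 3.04, 5.97 and 4.54 FPKM in resistant livers, against 7.64, 4.47 and 11.7 FPKM in susceptible livers. Susceptible 3 and susceptible 1 lay above every resistant bird and susceptible 2 among them, with a log2 fold change of -0.65 (95% interval -2.26 to 0.96). DHX35, a component of the catalytic spliceosome, had 7.19, 6.36 and 15.3 FPKM in resistant livers, against 9.14, 6.50 and 2.18 FPKM in susceptible livers. Resistant 3 was the high bird and susceptible 3 the low one, and the log2 fold change was 0.67 (95% interval -0.99 to 2.34), but -0.17 in the 4 birds with W fragments, which leave both of these out. The other 3 are DDX42, DDX46 and DHX38, which act at the branch site and at the second step of splicing, and their groups overlapped. Mean levels of the 6 genes ran from 4.78 to 14.4 FPKM.

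The 5 helicases of mRNA export, translation and decay had means of 15.5 to 139 FPKM, and 1 was higher and 4 lower in resistant livers, with a median log2 fold change of -0.09. DDX3X (ENSGALG00000016231; chromosome 1, galGal4, 111360104 to 111377529, minus strand) helps translation start on structured mRNAs and takes part in antiviral signalling in mammals. DDX3X had 133, 107 and 157 FPKM in resistant livers, against 189, 91.8 and 155 FPKM in susceptible livers. Susceptible 1 was the highest and susceptible 2 the lowest bird, so that the resistant range lay wholly inside the susceptible one. The log2 fold change was -0.09 (95% interval -0.97 to 0.79), and it was 0.01 after median ratio rescaling and 0.02 after quantile normalization. DDX6, a partner of the decapping enzyme and a core protein of P-bodies, had 15.1, 17.4 and 10.3 FPKM in resistant livers, against 26.1, 14.1 and 25.0 FPKM in susceptible livers. Susceptible 1 and 3 lay above all resistant birds while susceptible 2 lay among them, and the log2 fold change was -0.56 (95% interval -1.70 to 0.59). DHX36, which unwinds G-quadruplexes, had 20.4, 7.86 and 15.9 FPKM in resistant livers, against 9.00, 12.3 and 27.5 FPKM in susceptible livers, with a log2 fold change of -0.08 (95% interval -1.46 to 1.31). High and low birds of DHX36 were mixed between the groups.

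DDX19B, which RefSeq names DDX19 in chicken, frees mRNA from export proteins on the cytoplasmic face of the nuclear pore. DDX19B had 47.9, 6.31 and 37.9 FPKM in resistant livers, against 38.2, 30.9 and 67.8 FPKM in susceptible livers. Resistant 2 stood far below every other bird. The log2 fold change was -0.87 (SE 0.71, limma adjusted p = 0.984) with all birds and -0.02 without resistant 2.

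DHX29 (ENSGALG00000014700) binds the small ribosomal subunit and helps it scan through structured leaders, and it was the most variable of the abundant members. DHX29 had 50.4, 9.91 and 192 FPKM in resistant livers, against 23.6, 56.2 and 69.7 FPKM in susceptible livers. The highest and the lowest bird were both resistant, and the susceptible range lay between them. The log2 fold change was 0.04 (95% interval -1.98 to 2.06), but 1.10 without resistant 2 and -0.97 without resistant 3. DHX29 is on the minus strand of chromosome Z, in a merged locus entry (galGal4, 16596458 to 16664682) that it shares with another gene. The highest bird of each group for DHX29, resistant 3 and susceptible 3, was one without W fragments. The median FPKM of Z genes was 12.9, 9.83 and 21.0 in resistant 1 to 3, against 14.3, 11.2 and 19.1 in susceptible 1 to 3. In the 4 birds with W fragments the log2 fold change of DHX29 was -0.67.

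The same locus entry of the table also holds SKIV2L2, an exosome helicase on the opposite strand. SKIV2L2 had 7.35, 8.74 and 21.7 FPKM in resistant livers, against 7.02, 9.27 and 21.2 FPKM in susceptible livers. Both birds without W fragments were the high ones for SKIV2L2, by about the same amount in each group. The ratio of DHX29 to SKIV2L2 nonetheless ran between 1.13 and 8.87 in resistant livers and between 3.29 and 6.06 in susceptible livers. The sources used here do not say whether the counting used strand, and a shared locus entry does not show that the genes overlap. Whether reads of DHX29 and SKIV2L2 were mixed was not tested. Without DHX29 the family's share of the summed FPKM was 0.170 ± 0.0269% in resistant livers and 0.166 ± 0.0259% in susceptible livers (SD, n = 3 each).

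**Figure D3:**
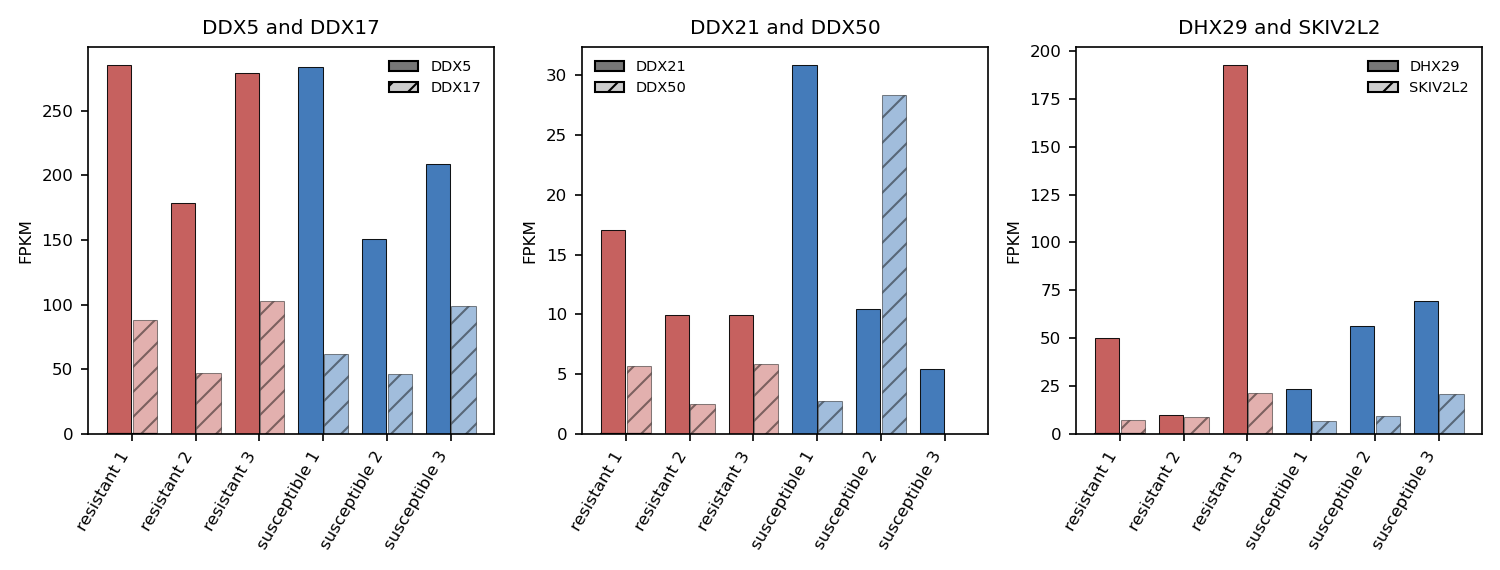
FPKM of 3 gene pairs in each liver (red, resistant; blue, susceptible), as bars starting at 0: the paralogs DDX5 and DDX17, the neighbouring paralogs DDX21 and DDX50, and DHX29 with SKIV2L2 of the same locus. DDX5 is above DDX17 in every bird, DDX50 is above DDX21 in susceptible 2 only, and DHX29 reaches 192 FPKM in resistant 3.

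Helicases of ribosome biogenesis, which work mainly in the nucleolus on pre-ribosomal RNA, made up the largest role group. Of the 13 tested, 5 were higher and 8 lower in resistant livers, with a median log2 fold change of -0.36, and none passed the test. The summed level of the 13 was 129, 61.0 and 134 FPKM in resistant 1 to 3, against 137, 161 and 114 FPKM in susceptible 1 to 3. Resistant 2 was the low bird and the other 2 resistant birds lay inside the susceptible range. DDX24, a helicase of the large subunit path and the most abundant of them, had 32.5, 10.5 and 67.3 FPKM in resistant livers, against 41.0, 57.1 and 27.6 FPKM in susceptible livers. As with DHX29, both extremes were resistant birds, and the log2 fold change was -0.47 (95% interval -1.91 to 0.97) with all birds but 0.21 without resistant 2.

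DDX21 and DDX50 are nucleolar paralogs that lie next to each other on chromosome 6 (galGal4, 10383543 to 10389962 and 10368934 to 10382418, both on the plus strand). DDX21, which acts in rRNA transcription and processing, had 17.1, 9.99 and 9.99 FPKM in resistant livers, against 30.8, 10.5 and 5.43 FPKM in susceptible livers, with a log2 fold change of -0.04. DDX50 had 5.70, 2.55 and 5.84 FPKM in resistant livers, against 2.75, 28.3 and 0 FPKM in susceptible livers, with a log2 fold change of 0.19 that was -0.94 without susceptible 3. DDX50 stood apart in susceptible 2, the only bird in which it exceeded DDX21. DDX21 stood at 1.71 to 3.92 times DDX50 in resistant livers, against 0.369 and 11.2 times in susceptible 2 and susceptible 1. RefSeq lists the name DDX50 as a synonym of chicken DDX21, and the sources used here do not say how reads shared by the pair were assigned.

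DDX55, a helicase of the large subunit path, had 5.94, 0 and 9.91 FPKM in resistant livers, against 3.90, 23.9 and 15.4 FPKM in susceptible livers. Susceptible 2 and 3 were the high birds and susceptible 1 lay below resistant 1 and 3. DDX55 had the largest log2 fold change in size of the family, -1.58 (SE 1.04, limma adjusted p = 0.984), and -0.54 without resistant 2, the bird listed at 0. The locus is shared with EIF2B1 on the other strand, which had 26.7, 9.58 and 27.7 FPKM in resistant livers, against 13.3, 0 and 6.05 FPKM in susceptible livers. EIF2B1 was listed at 0 in susceptible 2, the bird with the highest DDX55. DDX47, of the small subunit path, had 8.88, 13.3 and 0 FPKM in resistant livers, against 5.38, 12.9 and 11.5 FPKM in susceptible livers. Its log2 fold change of -0.99 (95% interval -3.30 to 1.32) was 0.20 without resistant 3, the bird listed at 0.

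For DDX27, of the large subunit path, resistant livers had 12.6, 5.28 and 13.6 FPKM, against 7.35, 14.5 and 3.59 FPKM in susceptible livers. DHX37, which releases the U3 small nucleolar RNA from the growing small subunit, had 8.61, 3.51 and 7.90 FPKM in resistant livers, against 7.70, 2.77 and 4.35 FPKM in susceptible livers. The groups of both genes overlapped, with log2 fold changes of 0.36 for DDX27 (95% interval -1.24 to 1.95) and 0.38 for DHX37 (95% interval -1.30 to 2.05). DDX31 had 4.43, 5.01 and 2.90 FPKM in resistant livers, against 7.35, 0 and 4.04 FPKM in susceptible livers. DDX49 had 6.42, 2.98 and 1.51 FPKM in resistant livers, against 5.34, 0 and 2.82 FPKM in susceptible livers. DDX31 and DDX49, of the large and the small subunit path, were both listed at 0 in susceptible 2 only, and their log2 fold changes of 0.53 and 0.54 were -0.37 and -0.23 without that bird. DDX52, of the small subunit path, is named here after its values were seen: it had 12.4, 1.36 and 0.218 FPKM in resistant livers, against 10.3, 0 and 15.9 FPKM in susceptible livers, and the largest spread of the family. DDX10, DDX18 and DDX54, the other genes of the group, had means of 2.06 to 7.43 FPKM and overlapping groups.

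The mitochondrial helicases DHX30 and DDX28, which assist assembly of the mitochondrial ribosome, were both higher in value in resistant livers. DHX30 had 8.61, 3.10 and 11.5 FPKM in resistant livers, against 4.53, 2.87 and 6.26 FPKM in susceptible livers, and DDX28 had 10.1, 1.10 and 12.9 FPKM in resistant livers, against 4.75, 0 and 12.1 FPKM in susceptible livers. In both genes the number 2 bird was the low one of its group and resistant 3 the highest of all. The log2 fold change was 0.56 for DHX30 (95% interval -1.15 to 2.26), and 0.70 for DDX28 (95% interval -1.86 to 3.26), which was -0.34 without susceptible 2. DDX28 shares its locus entry with DUS2 on the other strand. DUS2 had 2.07, 8.79 and 2.19 FPKM in resistant livers, against 3.30, 0 and 4.78 FPKM in susceptible livers.

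DDX4, the vasa gene of germ cells, on chromosome Z, was listed at 0 in every bird. DDX25, a testis helicase in mammals, was listed at 0 in 5 birds and had 4.597 FPKM in susceptible 3. It entered the test through that bird alone, and its log2 fold change of -0.83 rests on it. DHX57, for which no role is assigned here, had 2.24, 1.44 and 0.629 FPKM in resistant livers, against 5.76, 4.71 and 1.34 FPKM in susceptible livers. Susceptible 1 and 2 lay above all resistant birds and susceptible 3 did not, with a log2 fold change of -0.94 (95% interval -2.82 to 0.94). DDX59 and DHX40, likewise without an assigned role, had means of 6.67 and 4.58 FPKM and overlapping groups. The table places DDX59 in a merged locus with CAMSAP2, KIF14 and ZNF281, and the last 2 are on its own strand.

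Birds of the same group differed from each other across the family. Each member was set against its own mean over the 6 birds on the log2(FPKM + 1) scale, and the median deviation of the 34 tested genes was 0.38, -0.47 and 0.03 in resistant 1 to 3, against 0.30, -0.13 and 0.40 in susceptible 1 to 3. Resistant 2 was the low bird of the family, with 8 of 34 genes above their mean, and 24 of 34 were above it in resistant 1. Over all tested genes resistant 2 and susceptible 2 were the low birds, with medians of 0.15, -0.14 and 0.16 in resistant 1 to 3, against 0.12, -0.32 and 0.09 in susceptible 1 to 3. Resistant 2 also had the lowest summed FPKM of all genes, 351666, where the other 5 birds had 434608 to 476928. The part of that difference in the helicase values was not tested. Susceptible 2 was the lowest bird for 11 members and the highest for 4, among them DDX50, and 8 members were listed at 0 in it. These 8 include DDX4 and DHX32, which were at 0 in every bird. Of all genes with a mean of at least 5 FPKM, 12.6% were listed at 0 in susceptible 2, the largest share of any bird. Only DDX28 and DDX52 of the 8 members had such a mean, so the 8 cannot be set against that share.

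**Figure D4:**
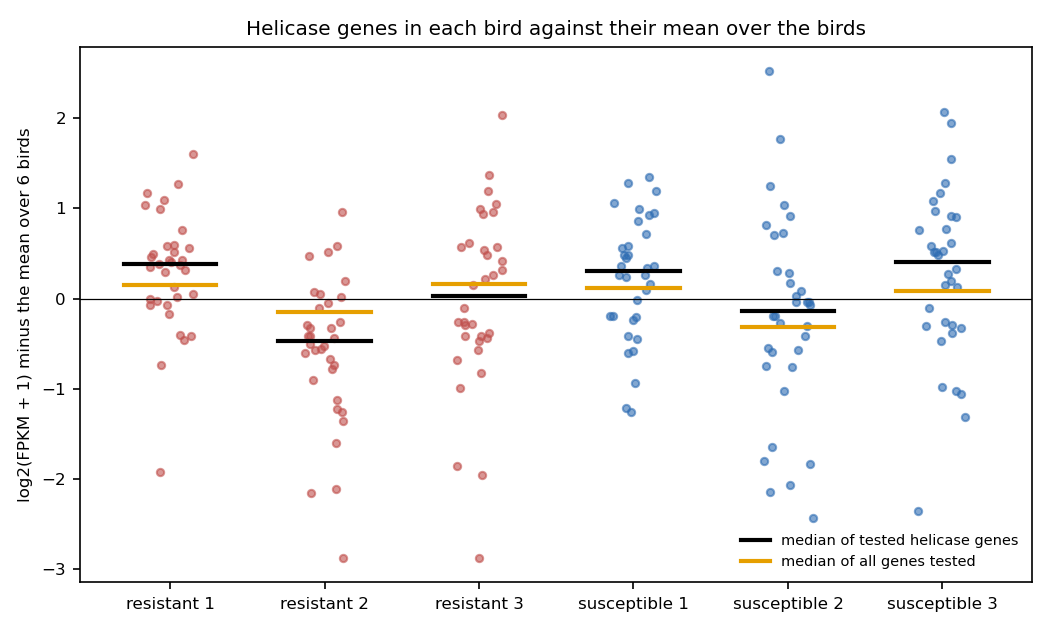
Difference of log2(FPKM + 1) from the gene's own mean over the 6 birds, for each of the 34 tested helicase genes (points) in each bird; black bars are the medians of the helicase genes and orange bars the medians of all 9626 genes tested. Resistant 2 has the lowest helicase median, -0.47, and susceptible 3 the highest, 0.40.

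The 2 most abundant members varied least. DDX3X and DDX5 had the lowest SDs of the 34 tested members over the 6 birds, 0.38 and 0.39 on the log2(FPKM + 1) scale, followed by DDX6 at 0.48 and DDX17 at 0.52. DHX29, though the fourth most abundant, had an SD of 1.41, and DDX52 the highest of the 34 at 1.85. Among members with a mean of at least 5 FPKM the median SD was 0.74, against 0.77 for all 5992 such genes, and 15 of 26 members lay below 0.77. Among members with a mean of at least 20 FPKM it was 0.72 over 6 members, against 0.62 for all 2378 such genes. Fragment numbers behind the values ran from 1634 to 4852 per bird for DDX5 and from 1774 to 4794 for DDX3X, but only from 39 to 194 for DDX20 and from 14 to 181 for DHX57.

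**Figure D5:**
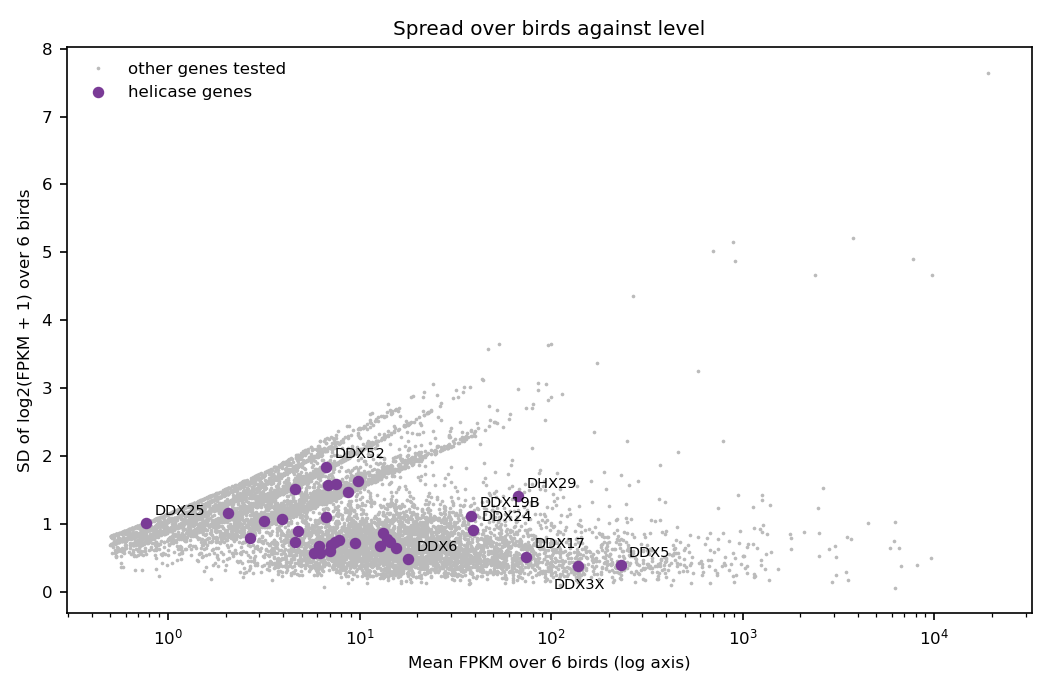
SD of log2(FPKM + 1) over the 6 birds against mean FPKM (log axis) for the 34 tested helicase genes (purple) and the other tested genes (grey). DDX3X and DDX5 are the lowest of these 34 with SDs of 0.38 and 0.39, and DHX29 stands at 1.41.

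The members are spread over 22 chromosomes, with 5 on chromosome 1 and 2, DHX29 and DDX4, on Z. The authors' annotation gave ATP binding to all 30 members that had a molecular function term and RNA helicase activity to 22 of them. Among the 23 with a cellular component term, 16 were placed in the nucleolus and 21 in the cytoplasm. DDX3X was the 1 member under the RIG-I-like receptor pathway, and 5 members were under the spliceosome.

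Partner genes of the helicases, in lists by path, did not pass the test either. Of 18 helicases outside the DDX and DHX naming rule, 13 were tested, 6 higher and 7 lower in resistant livers, with a median log2 fold change of -0.01. EIF4A2, the translation initiation helicase, is named after its values were seen: it had 717, 778 and 676 FPKM in resistant livers, against 930, 754 and 554 FPKM in susceptible livers, above every DDX and DHX gene. SUPV3L1, a mitochondrial RNA helicase, had 5.28, 3.34 and 0 FPKM in resistant livers, against 9.79, 7.48 and 6.54 FPKM in susceptible livers, without overlap. Its log2 fold change was -1.55 (95% interval -3.56 to 0.45), and -0.76 without resistant 3, the bird listed at 0. In this list 2 of the 13 tested genes had no overlap, 1 higher and 1 lower in resistant livers, against 8.41% of all genes. DHX58, which is on this list and on that of the RNA sensing partners, had the highest log2 fold change of the 13, 1.73, and its values are given with those partners.

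Ribosome assembly factors, 24 of 32 tested, were higher for 9 and lower for 15, with a median log2 fold change of -0.18. WDR75, of the small subunit processome, had 6.23, 5.24 and 10.9 FPKM in resistant livers, against 29.3, 11.2 and 18.6 FPKM in susceptible livers, without overlap (log2 fold change -1.25, limma adjusted p = 0.984). In its list 3 of the 24 tested genes had no overlap, all lower in resistant livers, against 8.41% of all genes. NHP2, a protein of the H/ACA particles, had 3.18, 15.8 and 0 FPKM in resistant livers and was listed at 0 in all 3 susceptible livers. Spliceosome partners, 19 of 23 tested, were higher for 8 and lower for 11, with a median of -0.18. SLU7, a second step factor, had 14.8, 13.4 and 35.0 FPKM in resistant livers, against 14.1, 8.16 and 7.67 FPKM in susceptible livers. SNRNP40, of the U5 particle, had 7.32, 4.32 and 4.08 FPKM in resistant livers, against 0, 6.94 and 0 FPKM in susceptible livers. Neither SLU7 nor SNRNP40 kept the groups apart. In this list 2 of the 19 tested genes did, both lower in resistant livers, where 8.41% of all genes had groups without overlap.

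Proteins of mRNA decay and P-bodies, 15 of 16 tested, were higher for 6 and lower for 9, with a median of -0.22. CNOT8, a deadenylase subunit, had 21.0, 19.4 and 11.9 FPKM in resistant livers, against 31.1, 28.1 and 29.5 FPKM in susceptible livers, without overlap (log2 fold change -0.77, limma adjusted p = 0.984). In its list 3 of the 15 tested genes had no overlap, all lower in resistant livers, against 8.41% of all genes. LSM14B, a P-body protein, had 8.43, 6.08 and 12.6 FPKM in resistant livers, against 0, 0 and 11.8 FPKM in susceptible livers. Export and exon junction proteins, 8 of 14 tested, were higher for 3 and lower for 5, with a median of -0.22. THOC5, of the THO export complex, had 3.27, 0.499 and 1.31 FPKM in resistant livers, against 5.42, 4.59 and 3.49 FPKM in susceptible livers, without overlap. In its list 1 of the 8 tested genes had no overlap, against 8.41% of all genes. GLE1, the nuclear pore activator of the DDX19 proteins, had 1.25, 2.12 and 2.39 FPKM in resistant livers, against 1.79, 0 and 0 FPKM in susceptible livers.

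RNA sensing partners, 11 of 15 tested, were higher for 7 and lower for 4, with a median log2 fold change of 0.54. None passed an adjusted p of 0.05 in limma's test. DHX58, the sensor that the naming rule left out, had 3.55, 5.75 and 1.73 FPKM in resistant livers, against 0, 0 and 1.32 FPKM in susceptible livers, without overlap. Its log2 fold change was 1.73 (95% interval -0.10 to 3.55), where the highest of the members was 0.70. It was 0.92 with 0s treated as missing and 3.81 with a pseudocount of 0.1, since 2 susceptible livers were listed at 0. In this list 1 of the 11 tested genes had no overlap, against 8.41% of all genes.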

How the data were processed

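RNA sequencing covered 6 livers, 3 from resistant and 3 from susceptible chickens, and groups and bird numbers come from the titles. The authors deposited FPKM per gene and a scaled count, which is a normalized signal, both per the file headers. Tools named in the submitters' processing notes, without their roles, are HISAT2 2.0.4, cutadapt 1.9.3, Cuffdiff and Cufflinks, with the galGal4 build. Between 99.5% and 99.7% of a bird's scaled counts above 0.1 lay within 0.02 steps of a whole multiple of 1 step, and their sum over that step is given as fragments. Between 2 and 6 values per bird lay below that limit, so no counting model was run. Positions are from the table (galGal4) and count from 1. There were 0 columns of other samples.

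From the deposited FPKM, log2(FPKM + 1) was tested with limma 3.58.1 in R 4.3.3 (lmFit, eBayes with a trend) over the 9626 genes that averaged 0.5 FPKM or more, 2-sided, with Benjamini-Hochberg adjustment at 0.05. The fit was run on simulated data with large changes planted in the more abundant genes only, and without listed 0s. That check required only that the sign of these changes was mostly right. It does not show how well changes of low members, or of members listed at 0, would be found. The labels do not say how the birds were kept, so p-values measure only the spread between these samples. Counts of any pair of birds differed far beyond sampling noise (chi-square per degree of freedom at least 54.8), so none was taken as a repeated deposit. Tables and figures were made with Python 3.11.15, pandas 2.3.3 and matplotlib 3.10.9. Gene names were matched to RefSeq for 35 members. Of its DDX and DHX symbols, 8 are not symbols of members here. That count compares names as written, so it includes DDX19, which is analysed here as DDX19B.

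The members, roles and lists were chosen with earlier results of these data known. The members named with values are the 10 most abundant, up to 8 per direction with the smallest unadjusted p, those of at least 5 FPKM without overlap between the groups, those on chromosomes Z and W, and paralogs of these. For each partner list up to 3 genes with the smallest p could be named, and at most 2 are given; 1 such gene is not reported here. Alternatives covered the pseudocount (0.1), the filter, rescaling, quantile normalization, a replicate block, 0s as missing, the scaled counts, the birds with W fragments and each bird left out.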

Additional observations from a re-analysis of the deposited data

How the results depend on the processing

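Under all 15 alternatives run, 0 genes and 0 helicase members passed an adjusted p of 0.05. With 0s treated as missing, 1 member, DDX52, had an unadjusted p under 0.05 (log2 fold change -2.03, limma adjusted p = 0.957). For DDX52 that setting drops susceptible 2, listed at 0, and its value in resistant 3 rests on 2 fragments. The log2 fold change of DDX52 was -0.77 in the main fit, 0.74 in the birds with W fragments and 0.0086 without susceptible 3. When 1 bird was left out, between 10 members (without susceptible 2) and 21 members (without resistant 2) were higher in resistant livers. The members' median then ran from -0.31 without resistant 1 to 0.16 without resistant 2. Same-numbered birds had correlated deviations of 0.01, 0.04 and 0.17, against -0.13 to 0.12 for the other pairs of birds. With 3 birds per group and deviations taken within groups, these values cannot settle whether the numbers pair the birds. The replicate block gave 0 genes past the threshold. Its lowest limma adjusted p was 0.363, against 0.580 in the main fit, and 458 genes had an unadjusted p under 0.05, against 373. The log2 fold change turned in sign in at least 1 alternative for 25 of the 34 tested members, and the cause was not tested. Among the members and partner genes described with values, DDX52 apart, it was, after median ratio rescaling, 0.0503 for DDX21, 0.00608 for DDX3X and 0.00556 for DHX36, and after quantile normalization 0.0346 for DDX21 and 0.0226 for DDX3X. In the birds with W fragments it was -0.30 for DDX27, 0.34 for DDX47, -1.11 for DDX50, -0.29 for DHX15, -0.67 for DHX29, -0.17 for DHX35 and 0.26 for DHX36. With 0s missing it was -0.34 for DDX28, -0.37 for DDX31, 0.20 for DDX47, -0.23 for DDX49, -0.94 for DDX50, -0.41 for LSM14B and -0.39 for SNRNP40. Leaving out 1 bird gave -0.0483 to 0.53 for DDX17, -0.56 to 0.59 for DDX21, -1.07 to 0.21 for DDX24, -0.0812 to 0.80 for DDX27, -0.34 to 1.56 for DDX28, -0.37 to 1.16 for DDX31, -0.39 to 0.13 for DDX3X, -1.72 to 0.20 for DDX47, -0.23 to 1.10 for DDX49, -0.0063 to 0.45 for DDX5, -0.94 to 1.49 for DDX50, -0.43 to 0.53 for DHX15, -0.97 to 1.10 for DHX29 and -0.40 to 0.36 for DHX36. DDX25 had no value with 0s missing or with the filter at 5 FPKM, and it was at 0 in every bird used without susceptible 3 and in the birds with W fragments. The planned counting models were not run, since a few scaled counts lay far below 1 step. The narrowest 95% interval of a member, that of DDX5, still ran from -0.64 to 1.09 on the log2 scale, and the values of a low member such as DDX20 rest on 39 to 194 fragments per bird.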
